A study of Homo sapiens with 12 samples.

Results

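The comparison asked whether overexpression of RNF26 had the same effect on mRNA levels in HCT15 as in HCT116, 2 human colorectal carcinoma lines. The measure was the difference between lines: the change from control to RNF26 cells in HCT15 minus the same change in HCT116, on log2(TPM + 1). TPM is transcripts per 1000000. All 12 of the 12 libraries entered it, and 15584 of the 63036 listed genes, those with a TPM of 1 or more in at least 3 libraries, were tested. A negative difference means that the HCT15 response lay below the HCT116 response, and a gene was called where its adjusted p was under 0.05.

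The 4 groups held 3 libraries each and were HCT116 control (genotype label HCT116_con), HCT116 with RNF26 (H116_ov_RNF26), HCT15 control (HCT15_con) and HCT15 with RNF26 (H15_ov_RNF26). All were established lines, and the vector, the duration of overexpression, any clonal selection and the treatment of the controls are not stated in the labels. The labels number the replicates but do not say that they were separate cultures, so p-values measure the spread between these samples, which may be technical. The depth behind the values is unknown, since TPM does not carry it.

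RNF26 is a RING-type ubiquitin ligase in the membrane of the endoplasmic reticulum, known for holding endosomes near the nucleus through SQSTM1 and TOLLIP and for modifying the immune adaptor STING. The series title links it to Wnt signalling, in which a complex of APC, AXIN1, GSK3B and casein kinase marks beta-catenin for destruction, and beta-catenin that escapes activates target genes with TCF factors. HCT15 lacks full-length APC and HCT116 carries stabilised beta-catenin, so the pathway is active in both lines by different routes.

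Of 9 epithelial markers, EPCAM, KRT8, KRT18 and KRT19 were above 100 TPM in each group mean. CDH1 had means of 6.97 and 8 TPM in the HCT116 control and RNF26 arms and 73.2 and 49.8 in those of HCT15. CDX2 had 5.85 and 4.06 TPM in HCT116 and 29.2 and 10.9 in HCT15. The intestinal genes VIL1 and CDH17 were under 1 TPM in the HCT116 means and at 81.7 and 3.23 TPM in HCT15 controls. LGALS4 was under 1 TPM in HCT116 and also in HCT15 controls (0.42 TPM), so part of the colon marker set was at or near 0. Of 21 markers of blood, vessel, stromal and other cells, 16 stayed under 1 TPM in every library, and PTPRC, CD3E, DCN and LUM were at or near 0. The others were CD68, CD14, HBA1, COL1A1 and HBB, with highest library values of 14.57, 7.35, 5.18, 2.77 and 2 TPM. The summed level of the 21 ranged from 13.4 to 14.9 TPM in HCT116 controls, 12.1 to 14.3 with RNF26 in HCT116, 16.8 to 23.4 in HCT15 controls and 12.3 to 15.96 with RNF26 in HCT15, mostly CD68 and, in HCT15, CD14.

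2 features of the libraries moved with the HCT15 arms. GC-rich genes stood lower against GC-poor genes with RNF26 in HCT15: the median log2 level of the GC-richest quintile of genes minus that of the GC-poorest quintile was -1.22 to -0.998, compared with -0.59 to -0.50 in HCT15 controls and -0.88 to -0.66 in HCT116. Mitochondrial and ribosomal protein mRNA took 45.1 to 47.0% of TPM with RNF26 in HCT15, 39.8 to 43.7% in HCT15 controls and 42.2 to 44.7% in HCT116. The third HCT15 control stood apart, with 25.9% mitochondrial and 17.8% ribosomal protein mRNA, where the other HCT15 controls had 16.4 to 17.7% and 22.1 to 24.7%. The part of these features in the results was not tested. Counts for all genes and most lists are therefore also given after correction for GC content and transcript length and after median-ratio scaling. Counts without single libraries are given for some lists only, and those of other lists may also have changed.

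RNF26 itself, on GRCh38 chromosome 11, 119334527 to 119337313, plus strand, was raised by unequal amounts. Its levels were 15.6, 18.4 and 16.5 TPM in the HCT116 controls, 299, 334 and 255 with RNF26 in HCT116, 26.7, 27.8 and 26.4 in the HCT15 controls and 53.5, 54.6 and 54.4 with RNF26 in HCT15. No arm overlapped another. The rise was 4.05 on the log2 scale in HCT116 and 0.98 in HCT15, each called (adjusted p = 1.2e-09 and 5.0e-05), and the difference was -3.07 (SE 0.13, adjusted p = 1.1e-06). HCT15 minus HCT116 was 0.65 in control cells and -2.42 with overexpression, so the order of the lines was reversed. The line with the smaller rise of RNF26 was the line in which other genes were called.

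The response differed for 3190 genes, 20.5% of those tested. Of these 2909 were called lower (18.7%) and 281 higher (1.8%), so 91.2% of the calls pointed down in HCT15. The HCT15 effect alone was called for 36.6% of genes and the HCT116 effect for 0.00642%, which is RNF26 only. Between the lines themselves 69.5% of genes were called in control cells and 67.9% with RNF26. Among the genes called lower, the median HCT15 effect was -0.62 and the median HCT116 effect 0.03. Among those called higher, the medians were 0.57 and -0.04. Most differences were therefore movements within HCT15: the HCT15 arms did not overlap in 3114 of the 3190 called genes (43.1% of all tested), and the HCT116 arms in 469, or 14.7% (12.8% of all tested). A difference of at least 1 on the log2 scale was reached by 257 genes called lower and 55 called higher. In bulk samples fewer cells of a type and less RNA per cell cannot be told apart.

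**Figure D1:**
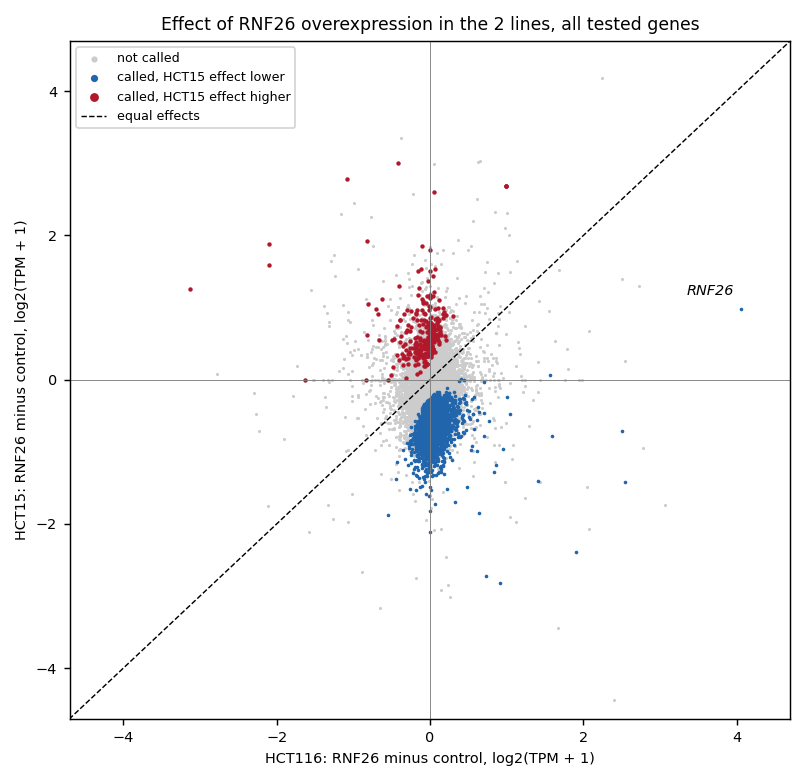
Effect of RNF26 overexpression in HCT116 (x axis) and HCT15 (y axis), log2(TPM + 1), for 15584 tested genes; the dashed line marks equal effects. Called genes (2909 blue, 281 red) spread along the HCT15 axis around an HCT116 effect near 0, and RNF26 lies far to the right at 4.05 against 0.98.

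The split of directions depended on scaling. The median difference over all tested genes was -0.18, and changes are to be read against it. After median-ratio scaling, which brought that median to -0.01, 934 genes were called higher and 1146 lower. Quantile normalization gave 856 higher and 1076 lower, and the correction for GC content and length 629 higher and 1013 lower of 14849 tested. Counts of the lists under these settings are to be read against these totals, with fewer genes lower and more higher than before. Of the 3190 genes, 1425 were also called after median-ratio scaling and 1234 with the GC and length correction. Leaving out single libraries gave 1941 to 3857 calls: 1941 without the second HCT116 RNF26 library, 2089 without the third HCT116 control, and 2125 without the first HCT116 RNF26 library. The count of genes called higher was most sensitive to the second HCT15 control, with 636 without it. It was 132 without the second and 168 without the first HCT116 RNF26 library, and 137 and 166 without the third and first HCT116 controls. Without the third HCT15 control 2970 genes were called, 269 higher and 2701 lower.

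Calls followed GC content. Genes called lower made up 5.22% of the GC-poorest quintile of tested genes (median transcript GC 40.3%), 19.5% of the middle quintile and 33.4% of the GC-richest quintile (median 62.0%). Genes called higher made up 3.23% of the poorest and 0.404% of the richest quintile. The median HCT15 effect ran from 0.00 in the GC-poorest quintile to -0.42 in the richest, and the HCT116 effect from 0.04 to -0.02. The gradient was thus far steeper in HCT15 as a description of these libraries.

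**Figure D2:**
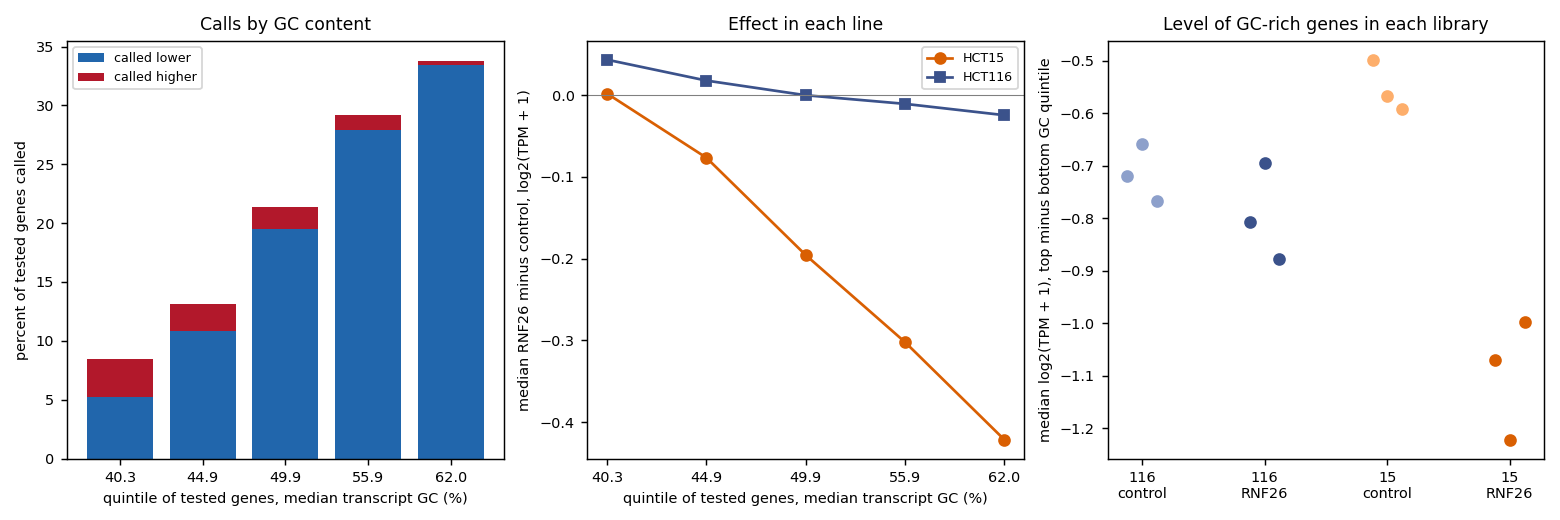
Left, percent of tested genes called lower or higher in 5 bins of transcript GC; centre, median effect in each line per bin, log2(TPM + 1); right, median log2(TPM + 1) of the GC-richest minus the GC-poorest bin in each library. Calls lower rise from 5.22 to 33.4%, and the 3 HCT15 RNF26 libraries lie at -1.22 to -0.998, below all others.

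To ask whether HCT15 moved towards or away from the HCT116 level, the gap between lines (HCT15 minus HCT116) was compared in control and RNF26 cells. A gap narrowed when it was smaller in size with RNF26. A gene called lower therefore narrowed if HCT15 stood above HCT116 on average over both arms, and widened if it stood below. For a list called mostly lower, the counts of narrowed and widened genes restate that order of the lines. Of the 3190 called genes 1734 narrowed (54.4%) and 1456 widened, compared with 52.2% narrowed among all tested genes. Of genes called lower 55.9% were higher in HCT15 than in HCT116 on average over both arms, and of all tested genes 55.8%. The fall in HCT15 thus met genes above and below the HCT116 level in nearly the proportion in which they occurred. Among genes with an average gap of at least 1 the share narrowed was 61.5% (437 of 710), where it was 54.7% of all tested genes with such a gap. With an average HCT15 level of at least 5 TPM as well, it was 61.8% (366 of 592) of called and 57.3% of tested genes. Of those tested genes 72.9% stood above HCT116. Without that limit on level, the called share at such a gap was 45.8% after median-ratio scaling and 52.3% with the GC and length correction. The share over all called genes was 45.9% and 47.5%. Over all called genes the balance thus turned from narrowing to widening with the scaling.

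The distance of each HCT15 library from the HCT116 mean, as a root mean square over all tested genes on the log2 scale, was 1.17, 1.14 and 1.19 in the controls and 1.12, 1.14 and 1.13 with RNF26. The mean was 1.17 ± 0.025 in controls and 1.13 ± 0.015 with RNF26 (SD, n = 3 each). The groups overlapped, the difference was -0.04, and an exact two-sided permutation test gave p = 0.2, where 0.1 is the smallest that 3 against 3 allows. After quantile normalization the difference was 0.01 in the other direction (exact p = 0.8). It was -0.00102 after median-ratio scaling and -0.0184 without mitochondrial and ribosomal protein genes (exact p = 0.6). With a pseudocount of 0.1 the difference was -0.04 and with no filter on low values -0.03, each at that smallest exact p of 0.1. The gap changed sign, with a called gap in each arm, in 236 called genes (1.51% of those tested): 226 went from above the HCT116 level to below it and 10 from below to above.

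**Figure D3:**
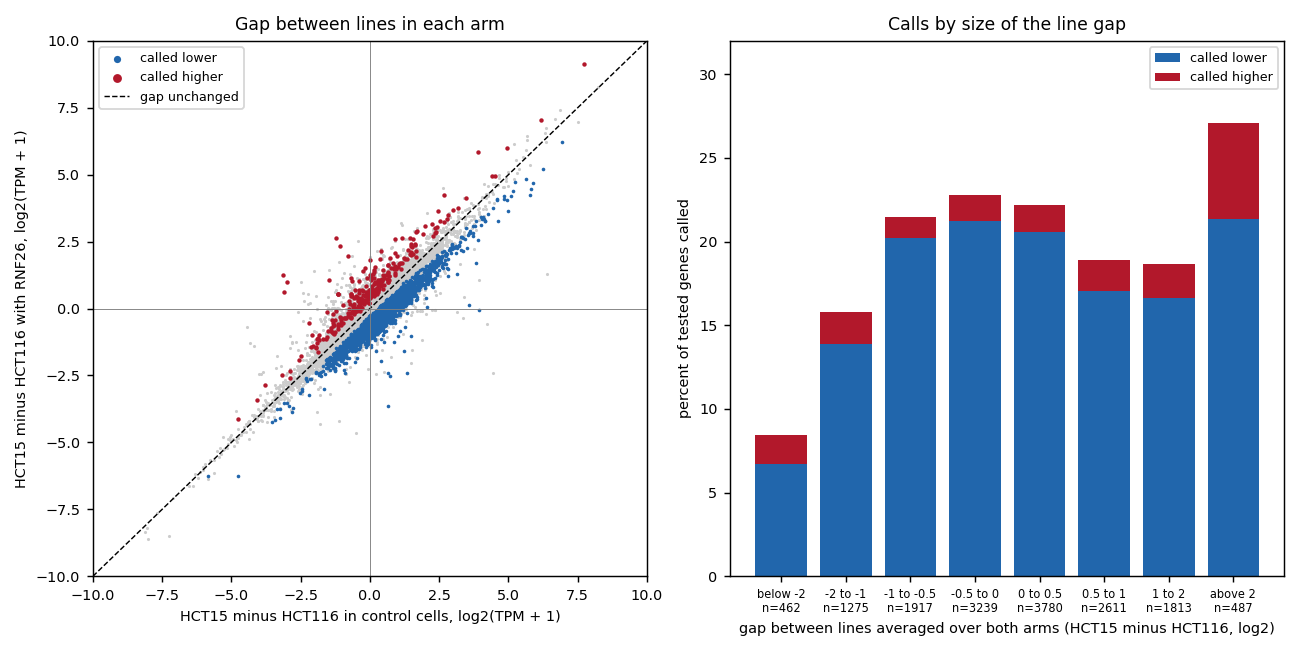
Left, gap between lines (HCT15 minus HCT116, log2(TPM + 1)) in control cells (x axis) and with RNF26 (y axis) for each tested gene; right, percent of genes called by the size of the gap averaged over arms. Most called genes lie below the diagonal, with 20.6 to 21.2% called lower for gaps between -0.5 and 0.5 and 6.71% where HCT15 was lower by over 2. Genes of that last bin had a median of 0.21 TPM in HCT15 controls, where a fall barely shows on log2(TPM + 1).

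The largest negative differences after RNF26 included chaperone, brush-border and scaffold genes. HSPB1 encodes the small heat shock protein Hsp27. Its levels were 850.1, 929 and 802 TPM in the HCT116 controls, 870.0, 934 and 899.7 with RNF26 in HCT116, 1146, 882 and 979 in the HCT15 controls and 335, 246 and 334 with RNF26 in HCT15, and the difference was -1.79 (SE 0.18, adjusted p = 0.00085). The HCT15 RNF26 libraries lay below all 9 others, which overlapped each other. VIL1, on chromosome 2, 218419092 to 218453295, plus strand, encodes villin of the microvillus core. It was listed at 89.6, 57.8 and 97.7 TPM in HCT15 controls, 25.6, 25.4 and 26.4 with RNF26, and under 1 TPM in all HCT116 libraries, with a difference of -1.54 (SE 0.23, adjusted p = 0.0021). HCT15 thus moved towards HCT116, from a gap of 5.79 to 4.25, and kept a clear level of villin mRNA.

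AKAP12, a scaffold for protein kinase A, moved the other way. HCT15 already held far less of it than HCT116: 11.9, 9.50 and 16.5 TPM in HCT15 controls and 3.60, 4.36 and 3.37 with RNF26, against 352, 363 and 364 and 369, 372 and 338 in the HCT116 arms. The difference was -1.49 (SE 0.21, adjusted p = 0.0019) and the gap went from -4.76 to -6.24. DUSP8, a MAP kinase phosphatase, fell from 6.98, 5.68 and 5.16 to 2.22, 0.84 and 0.93 TPM in HCT15 and stayed under 1 TPM in HCT116, a difference of -1.60 (SE 0.29, adjusted p = 0.0048). POMT2, an O-mannosyltransferase, had 9.22, 8.94 and 10.6 TPM in the HCT116 controls, 39.00, 23.4 and 31.4 with RNF26 in HCT116, 9.13, 27.1 and 8.57 in the HCT15 controls and 6.16, 8.67 and 6.82 with RNF26 in HCT15. Its HCT116 arms did not overlap, its HCT15 arms did, with the second HCT15 control far above the others, and the difference was -2.36 (SE 0.49, adjusted p = 0.0081).

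Others of this group rested on low or variable values. The histone gene H2AC17 had a difference of -1.52 (SE 0.30, adjusted p = 0.0064). The kinase gene MAP3K9 (-1.98), the primate-specific family member NBPF26 (-1.48) and RAB11FIP3, a Rab11 effector (-1.61), lost their calls in 19, 18 and 14 of 24 alternative settings. NBPF26 and H2AC17 have near-identical relatives, and their values are uncertain.

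Of the genes named by the rule, CTNNA2 and NMBR had the 2 largest positive differences. CTNNA2, a neuronal alpha-catenin, was listed at 2.17, 0 and 3.07 TPM in the HCT116 controls, 0, 0.36 and 0 with RNF26 in HCT116, 0 in all HCT15 controls and 1.94, 11.9 and 7.65 with RNF26 in HCT15, a difference of 3.87 (SE 0.78, adjusted p = 0.0073). NMBR, the neuromedin B receptor, had 10.6, 4.57 and 2.15 and 12.9, 22.7 and 32.8 TPM in the HCT15 arms and a difference of 2.74 (SE 0.70, adjusted p = 0.02). In HCT116 it had 12.6, 13.4 and 4.45 TPM in controls and 5.95, 3.48 and 5.24 with RNF26. Its spread was wide, and 3 alternative settings ended the call. Calls of YIPF4 (1.74), the coactivator SUB1 (1.23) and the zinc finger gene ZNF585A (1.19) were lost in 15, 10 and 9 of 24 settings, and that of CLPSL2 (1.70) in 6 of 23.

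LCN2, on chromosome 9, 128149071 to 128153455, plus strand, encodes lipocalin 2, an iron-siderophore binder of inflamed epithelium. It was listed at 343, 392 and 311 TPM in HCT15 controls and 937, 941 and 943 with RNF26, and near 1 TPM or less in HCT116. The difference was 1.40 (SE 0.26, adjusted p = 0.0056), with adjusted p = 0.11 at a pseudocount of 0.1. SAA1, an acute-phase apolipoprotein with near-identical relatives, had 15.9, 21.7 and 9.51 TPM in HCT15 controls and 69.2, 54.00 and 48.1 with RNF26, a rise of 1.85 in HCT15 (adjusted p = 0.00017), and was listed at or near 0 in HCT116. SLPI, a secretory leukocyte protease inhibitor, went from 5.19, 3.85 and 4.86 to 10.9, 10.2 and 13.9 TPM in HCT15, a difference of 1.20 (SE 0.26, adjusted p = 0.01) that was 0.060 in adjusted p at a pseudocount of 0.1. In each of these 3 genes the HCT15 level moved further above HCT116.

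SERPINE2, on chromosome 2, 223975112 to 224039319, minus strand, encodes protease nexin-1 and rose towards the HCT116 level. Its levels were 30.3, 31.4 and 26.4 TPM in the HCT116 controls, 25.8, 27.5 and 26.01 with RNF26 in HCT116, 9.91, 9.85 and 8.67 in the HCT15 controls and 23.97, 26.02 and 23.1 with RNF26 in HCT15. The difference was 1.42 (SE 0.12, adjusted p = 0.00039), and the gap closed from -1.53 to -0.12. NIBAN1, a gene of the stress response, rose from 4.18, 5.95 and 5.74 to 16.3, 20.2 and 14.98 TPM in HCT15 and lay between 1.67 and 2.28 TPM in HCT116, a difference of 1.47 (SE 0.20, adjusted p = 0.0017). APOC1, a lipoprotein apolipoprotein, had 1.49, 1.07 and 1.60 TPM in the HCT116 controls, 0.58, 0.73 and 0.18 with RNF26 in HCT116, 10.2, 20.2 and 13.2 in the HCT15 controls and 29.7, 26.1 and 25.7 with RNF26 in HCT15, arms that did not overlap in either line, and a difference of 1.59 (SE 0.30, adjusted p = 0.0059).

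**Figure D4:**
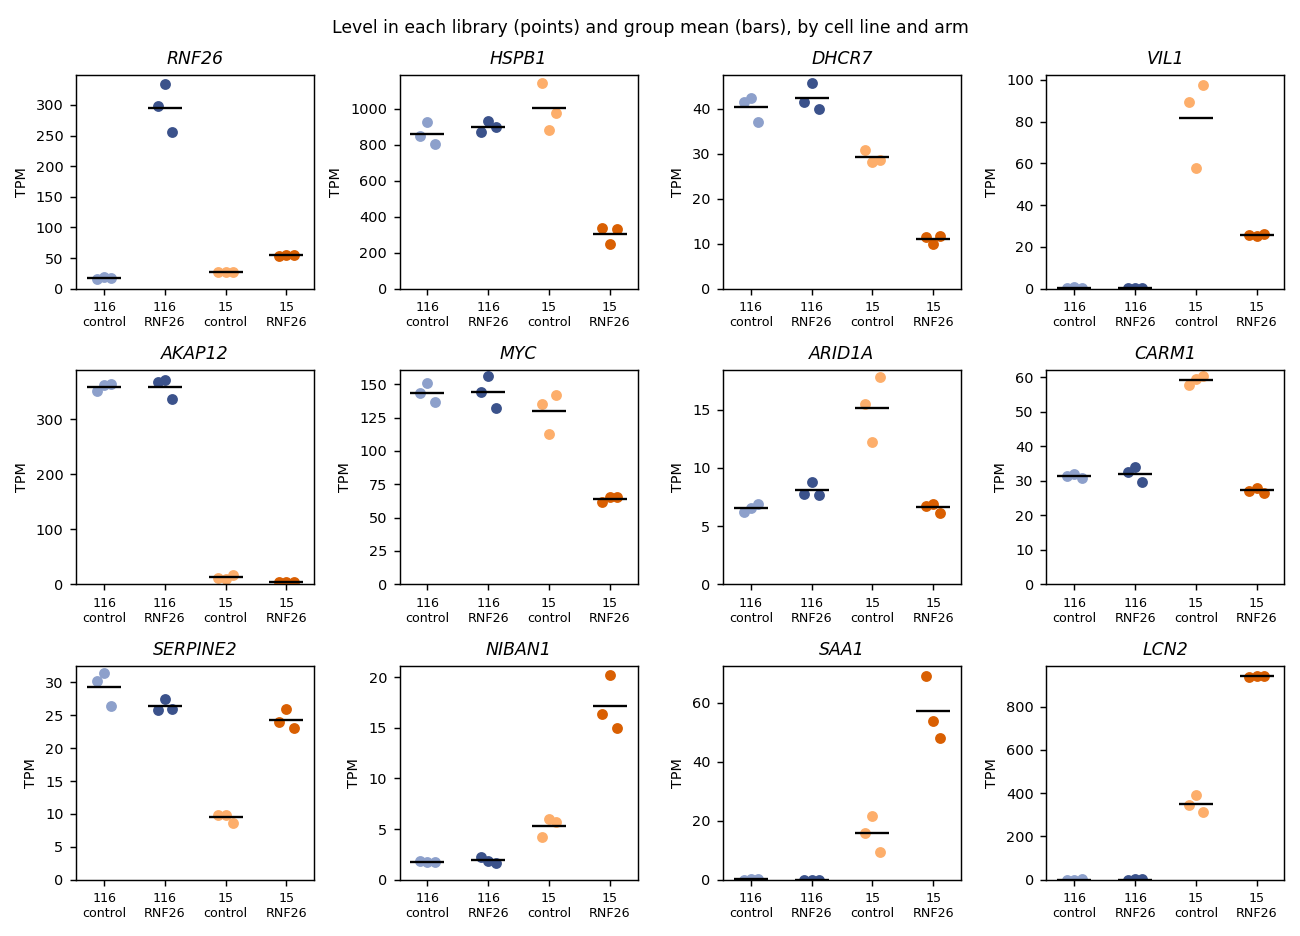
TPM in each library (points) and group means (lines) for 12 genes, by line and arm; axes start at 0 and differ between genes. The HCT15 RNF26 libraries lie above their controls for RNF26, SERPINE2, NIBAN1, SAA1 and LCN2 and below them in the other panels, and the HCT116 arms overlap in all panels but RNF26 and ARID1A.

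Wnt target genes were called lower in 15 of 31 tested (48.4%) and higher in none. Of all tested genes 18.7% were called lower and 1.8% higher, and the shares of this and later lists are to be read against these. The median difference was -0.64 where that of all tested genes was -0.18. After median-ratio scaling 10 were lower and 1 higher, and with the GC and length correction 9 and 0. The list median was then -0.43 and -0.26, where that of all tested genes was -0.01 and -0.02. MYC, a transcription factor of cell growth, had 143, 151 and 137 TPM in the HCT116 controls and 144, 156 and 133 with RNF26 in HCT116. It had 136, 113 and 142 TPM in the HCT15 controls and 61.4, 65.6 and 65.6 with RNF26 in HCT15. Its HCT15 RNF26 libraries lay below all others, and the difference was -1.003 (SE 0.13, adjusted p = 0.0013), or -0.66 once corrected for GC content and length, still called (adjusted p = 0.0077). HCT15 started near the HCT116 level and moved away, from a gap of -0.15 to -1.15.

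ZNRF3, a ligase that removes Wnt receptors and is itself a target, went the other way. It had 1.61, 2.06 and 1.61 TPM in the HCT116 controls, 2.21, 2.08 and 1.67 with RNF26 in HCT116, 11.9, 11.3 and 12.8 in the HCT15 controls and 3.88, 4.22 and 4.93 with RNF26 in HCT15, with a difference of -1.40 (SE 0.16, adjusted p = 0.0012), and its gap narrowed from 2.24 to 0.84. SOX4, an SRY-box factor, crossed the HCT116 level (-1.19 (SE 0.14, adjusted p = 0.0012), gap 0.47 to -0.71). The AP-1 subunit FOSL1 (-0.91) widened its gap and the ligand BMP4 (-0.70) narrowed it. Of the 15 called targets 10 narrowed and 5 widened, and 21 of 31 stood above HCT116 in the controls.

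Wnt pathway components were called lower in 16 of 42 (38.1%) and higher in none (median -0.38), and 13 of the 16 narrowed. After median-ratio scaling 7 were lower, and with the GC and length correction 5. AXIN1, the scaffold of the destruction complex, had 24.7, 23.4 and 28.1 TPM in HCT15 controls and 11.97, 11.5 and 12.4 with RNF26, against 3.63, 4.28 and 3.79 and 3.72, 5.86 and 3.86 in HCT116. The HCT15 arms did not overlap while the HCT116 arms did, and the difference was -1.17 (SE 0.19, adjusted p = 0.0031), or -0.68 with the GC and length correction. LRP5, a Wnt co-receptor, had a difference of -1.03 (SE 0.17, adjusted p = 0.0033) and came near the HCT116 level, with gaps of 1.32 and 0.29. The kinase CSNK1D (-0.71) and the corepressor TLE3 (-0.94) were also called, and both ended below HCT116. The TLE3 call was lost with the GC and length correction (adjusted p = 0.12).

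DNA replication and S phase genes were called lower in 26 of 45 (57.8%, where 18.7% of all tested genes were) and higher in 1. The median was -0.42, and the gap widened in 22 and narrowed in 5. Most of these genes, 36 of 45, were already lower in HCT15 controls. MCM2, a subunit of the replicative helicase, had 77.9, 80.5 and 76.8 TPM in the HCT116 controls, 78.5, 94.3 and 73.4 with RNF26 in HCT116, 55.7, 53.6 and 55.1 in the HCT15 controls and 24.2, 28.5 and 29.3 with RNF26 in HCT15. The difference was -1.04 (SE 0.13, adjusted p = 0.0014), and the 3 HCT15 RNF26 libraries were the lowest. TYMS, the thymidylate synthase (-0.85), the helicase cofactor CDC45 (-0.78) and the polymerase subunit POLD2 (-0.78) were called lower, and the member called higher was the cyclin gene CCNE2 (0.75). Median-ratio scaling left 13 lower and 3 higher, and the GC and length correction 17 and 2.

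Genes of G2 phase and mitosis were lower in 16 of 47 (34.0%, where 18.7% of all tested genes were), with a median of -0.28 and 13 widened. PLK1, the mitotic kinase, was level between lines in controls and had 60.3, 49.1 and 54.5 TPM in HCT15 controls and 25.9, 26.6 and 26.2 with RNF26, a difference of -1.07 (SE 0.12, adjusted p = 0.0012). MYBL2 (-1.22), a mitotic gene activator, the phosphatase CDC25B (-0.83) and the kinase AURKA (-0.50) followed. After median-ratio scaling 5 were lower and 1 higher, and AURKA was no longer called. After the GC and length correction 11 were lower.

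Ribosome biogenesis genes, which respond to MYC, were lower in 19 of 40 (47.5%, where 18.7% of all tested genes were), and all 19 widened the gap. TCOF1, a nucleolar factor of ribosomal RNA transcription, had 23.6, 20.7 and 24.3 TPM in HCT15 controls and 10.5, 13.1 and 12.4 with RNF26, a difference of -1.05 (SE 0.14, adjusted p = 0.0016). The acetyltransferase NAT10 (-0.91), BOP1 (-1.07) and RRP12 (-1.04), which act in subunit assembly, were also lower. Both median-ratio scaling and the GC and length correction left 7 lower. Tubulins, the subunits of microtubules and of their nucleation complex, were lower in 7 of 11 (63.6%). Median-ratio scaling and the GC and length correction each left 5 lower, and 9 were lower without the third HCT15 control. TUBA1B went from 2407, 2135 and 2212 to 1172, 1069 and 1096 TPM in HCT15, a difference of -0.89 (SE 0.10, adjusted p = 0.0012), and TUBB2A (-0.99), TUBG1 (-0.78) and TUBA4A (-0.90) were called as well. Tubulin paralogs share sequence, and their values are uncertain.

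Cholesterol synthesis and uptake genes were lower in 17 of 28 (60.7%, where 18.7% of all tested genes were) and higher in none (median -0.43). Of the 17, 14 widened and 3 narrowed, and 21 of 28 were already below HCT116 in controls. Under median-ratio scaling 10 were lower and with the GC and length correction 14, with none higher under either. These genes are activated by the factor SREBF2, which INSIG1 holds in the endoplasmic reticulum when sterol is plentiful. The upstream sequences of 3 members are shown because the sterol regulatory element (TCACNCCAC) and the CCAAT box, bound by the partner factor NF-Y, are known features of such promoters. Each is the first listed window of its gene, the 250 bases before the start site in RefSeq on GRCh38.p14, in transcript orientation, with matches to either motif on either strand in capitals.
SREBF2 (chr22:41832855-41833104, plus strand): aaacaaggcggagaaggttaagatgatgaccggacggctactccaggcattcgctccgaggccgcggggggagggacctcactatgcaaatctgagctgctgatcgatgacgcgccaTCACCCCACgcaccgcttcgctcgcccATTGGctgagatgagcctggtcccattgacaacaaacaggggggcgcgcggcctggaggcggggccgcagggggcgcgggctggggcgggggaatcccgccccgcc
DHCR7 (chr11:71448394-71448643, minus strand): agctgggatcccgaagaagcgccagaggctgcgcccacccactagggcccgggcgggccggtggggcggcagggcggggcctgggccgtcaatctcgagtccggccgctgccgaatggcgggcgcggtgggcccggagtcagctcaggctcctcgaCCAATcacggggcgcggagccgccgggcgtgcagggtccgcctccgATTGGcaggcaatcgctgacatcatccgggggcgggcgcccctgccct
INSIG1 (chr7:155297628-155297877, plus strand): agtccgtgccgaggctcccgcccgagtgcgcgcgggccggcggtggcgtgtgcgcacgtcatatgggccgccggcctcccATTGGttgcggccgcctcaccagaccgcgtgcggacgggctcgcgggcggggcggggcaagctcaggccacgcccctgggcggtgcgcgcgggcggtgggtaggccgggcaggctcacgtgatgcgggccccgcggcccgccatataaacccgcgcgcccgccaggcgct

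The SREBF2 window held 1 sterol element, 133 bases before the start, and 1 CCAAT box. The DHCR7 window held 2 CCAAT boxes and the INSIG1 window 1, with no match to the sterol element in these letters. In the table of RefSeq windows 21 genes of the list matched, with 27 windows, and 18 of the 27 (66.7%) held a CCAAT box, where 33.1% of the windows of tested genes did. The sterol element was in 1 of the 27 and in 0.843% of windows of tested genes. A match is a description and not a site.

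DHCR7, which makes the final reduction to cholesterol, had 29.2 ± 1.48 TPM in HCT15 controls and 11.1 ± 0.92 with RNF26, against 40.2 ± 2.88 and 42.4 ± 3.06 in HCT116 (mean ± SD, n = 3), a difference of -1.40 (SE 0.12, adjusted p = 0.00039). Its HCT15 arms did not overlap, and HCT15 moved further below HCT116. SREBF2, a transcription factor that drives sterol synthesis genes, crossed the HCT116 level: 22.9, 23.8 and 22.7 TPM in the HCT116 controls, 23.3, 24.6 and 20.2 with RNF26 in HCT116, 36.8, 34.05 and 35.1 in the HCT15 controls and 15.9, 17.7 and 17.9 with RNF26 in HCT15, a difference of -0.97 (SE 0.11, adjusted p = 0.0012). INSIG1 had a difference of -0.86 (SE 0.11, adjusted p = 0.0013) and widened.

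Fatty acid synthesis and lipid droplet genes were lower in 12 of 29 (41.4%, where 18.7% of all tested genes were) and higher in none, with 11 widened. FASN, the fatty acid synthase, had 56.96, 60.2 and 53.2 TPM in the HCT116 controls, 57.4, 60.9 and 41.3 with RNF26 in HCT116, 17.1, 17.8 and 17.5 in the HCT15 controls and 6.08, 5.67 and 5.17 with RNF26 in HCT15. Its HCT15 arms did not overlap, and the difference was -1.37 (SE 0.17, adjusted p = 0.0013). SREBF1, the lipogenic relative of SREBF2 (-1.20 (SE 0.12, adjusted p = 0.00074)), and ACLY, which supplies cytosolic acetyl-CoA (-1.04), were lower too. PNPLA2, the lipase that opens lipid droplets, was the member that narrowed, with -0.88. Median-ratio scaling left 6 lower and 1 higher, and the GC and length correction 8 and 1.

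Epithelial junction and keratin genes were lower in 19 of 40 (47.5%, where 18.7% of all tested genes were) and higher in none (median -0.36). Here 15 of 19 narrowed. CLDN2, a pore-forming claudin, had 81.9, 76.00 and 80.7 TPM in HCT15 controls and 35.4, 34.3 and 36.4 with RNF26, and under 1 TPM in HCT116, a difference of -1.18 (SE 0.16, adjusted p = 0.0015). ST14, the membrane protease matriptase, crossed the HCT116 level. It had 38.3, 40.7 and 35.4 TPM in the HCT116 controls, 37.8, 44.1 and 33.2 with RNF26 in HCT116, 67.7, 60.4 and 64.7 in the HCT15 controls and 26.5, 27.03 and 27.6 with RNF26 in HCT15, with a difference of -1.22 (SE 0.13, adjusted p = 0.0012). The desmosome gene PKP2 (-0.69) moved towards HCT116. After median-ratio scaling 10 were lower and 1 higher, and with the GC and length correction 9 and 3.

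Intestinal identity genes were lower in 8 of 13 (61.5%), and 7 of the 8 narrowed. KLF5, a crypt transcription factor, had 57.3, 74.3 and 65.3 TPM in HCT15 controls and 27.98, 29.3 and 27.1 with RNF26, against 7.86, 9.37 and 9.39 and 7.56, 9.31 and 8.08 in HCT116, a difference of -1.10 (SE 0.15, adjusted p = 0.0017). GATA6 (-1.02), a factor of gut identity, was lower too, as was VIL1, but the GATA6 call was lost with the GC and length correction (adjusted p = 0.058). The homeobox gene CDX2 had -0.93 (adjusted p = 0.042), and 13 of 24 settings ended that call. Of 13, 5 were lower without the third HCT15 control, 4 after median-ratio scaling and 3 with the GC and length correction. Mesenchymal genes, the other pole of the epithelial scale, were lower in 5 of 21 (23.8%, near the 18.7% of all tested genes) and higher in none, and all 5 narrowed. PLAU, the urokinase (-0.85 (SE 0.10, adjusted p = 0.0013)), the calponins CNN3 (-0.66) and CNN2 (-0.70) and the membrane protease gene MMP14 (-1.03) were among these 5. Median-ratio scaling left 4 lower and 1 higher, and the GC and length correction 3 and 1, without CNN2 (adjusted p = 0.059). The mesenchymal median was -0.25, and 0.04 with that correction.

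Immediate early genes, switched on within minutes of a stimulus, were lower in 14 of 25 (56%, where 18.7% of all tested genes were) with a median of -0.55. CCN2, a matricellular target of YAP and growth factors, had 5.70, 4.94 and 4.67 TPM in HCT15 controls and 1.96, 1.74 and 1.56 with RNF26, a difference of -1.08 (SE 0.15, adjusted p = 0.0017). ZFP36, an mRNA decay factor, had -1.09. Genes of ERK feedback were lower in 7 of 17 (41.2%). EPHA2, a receptor tyrosine kinase, had 17.4, 19.2 and 18.5 TPM in the HCT116 controls and 18.6, 20.7 and 15.9 with RNF26 in HCT116. It had 43.2, 41.95 and 41.5 TPM in the HCT15 controls and 18.96, 19.5 and 20.7 with RNF26 in HCT15. Its HCT15 level fell close to that of HCT116, with a difference of -1.06 (SE 0.12, adjusted p = 0.0012). PHLDA1 (-0.84), SPRED2 (-0.78), an inhibitor of the cascade, and CCND1 (-0.68), cyclin D1, were called in the same direction. Median-ratio scaling left 9 and 6 of the lists lower, and the GC and length correction 8 and 5, with 1 ERK gene higher.

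In the ATF4 amino acid response 10 of 30 were lower (33.3%, where 18.7% of all tested genes were). Of these 10, 9 narrowed, as 28 of 30 stood higher in HCT15 controls. SESN2, a leucine sensor of the mTOR pathway, had 26.8, 25.7 and 25.8 TPM in HCT15 controls and 10.9, 12.8 and 11.8 with RNF26, against 3.69, 3.36 and 3.25 and 3.11, 3.94 and 3.14 in HCT116, a difference of -1.06 (SE 0.13, adjusted p = 0.0013). The amino acid transporters SLC7A5 (-1.17) and SLC7A1 (-1.12) and the serine synthesis enzyme PSPH (-0.68) were also lower. Median-ratio scaling gave 7 lower and 3 higher, and the GC and length correction 8 and 1.

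ER chaperone and ER stress genes were lower in 14 of 29 (48.3%) and higher in 1 (3.45%, where 1.8% of all tested genes were). CRELD2 (-1.20 (SE 0.11, adjusted p = 0.00074)), a secretory chaperone, CALR, calreticulin (-1.02), and the disulphide isomerases PDIA4 (-0.98) and P4HB (-0.62) were called. PDIA4 crossed the HCT116 level, and the member called higher was DNAJC3 (0.39). Over the list 7 genes narrowed and 8 widened. After median-ratio scaling 6 were lower and 4 higher, and with the GC and length correction 7 and 3. Heat shock chaperones were lower in 7 of 23 (30.4%, where 18.7% of all tested genes were) and higher in 1, with 7 widened. HSP90AA1, an HSP90 paralog, had 1138, 986 and 1339 TPM in HCT15 controls and 449.8, 489 and 439 with RNF26, where HCT116 lay between 2165 and 2341. The difference was -1.35 (SE 0.14, adjusted p = 0.00085). The cochaperones DNAJB1 (-0.53) and BAG3 (-0.93) were lower as well, and DNAJA1 (0.30) was higher. Median-ratio scaling left 4 lower and the GC and length correction 5, each with 1 higher.

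Glycolysis and hypoxia genes were lower in 9 of 37 (24.3%, near the 18.7% of all tested genes) and higher in 1. The lower genes included the glucose transporter SLC2A1 (-1.26 (SE 0.16, adjusted p = 0.0015)), PKM (-0.97), the phosphofructokinase PFKP (-0.78) and the hexokinase HK1 (-0.92), while the histone demethylase gene KDM3A was higher (0.47). Genes of the p53 response were lower in 10 of 28 (35.7%) and higher in 1, and their median of -0.19 was near that of all genes. GDF15, a secreted stress factor, had 345, 282 and 320.4 TPM in HCT15 controls and 146, 137 and 157 with RNF26 (-0.77 (SE 0.15, adjusted p = 0.007)), and CDKN1A (-0.61) and AEN (-0.57) were lower and RPS27L higher (1.08). After median-ratio scaling the glycolysis list had 6 lower and 3 higher and the p53 list 4 and 3. With the GC and length correction the glycolysis list again had 6 and 3, while the p53 list had 2 lower and 1 higher, and CDKN1A and AEN were no longer called (adjusted p = 0.1 and 0.13).

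Clock genes were lower in 4 of 15 (26.7%, where 18.7% of all tested genes were), led by the repressor NR1D1 (-1.25 (SE 0.18, adjusted p = 0.0021)) and followed by NPAS2 (-0.80), BMAL1 (-0.66) and CRY2 (-0.50, lost in 18 of 24 settings). After median-ratio scaling NR1D1 alone was called, with adjusted p of 0.055 for NPAS2 and 0.082 for BMAL1, and with the GC and length correction 3 were. Of 33 replication-dependent histones H2AC17 and H2BC13 (-1.25) were lower (6.06%) and H2BC5 (0.78) higher (3.03%, where 1.8% of all tested genes were). The H2BC13 and H2BC5 calls were lost in 11 of 23 and 7 of 24 settings. Histone mRNA lacks poly(A) tails and its genes are near-identical, so these values are uncertain.

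Acute-phase and NF-kB target genes were called lower in 7 of 31 tested (22.6%, near the 18.7% of all tested genes). They were called higher in 5 (16.1%, where 1.8% of all tested genes were). The 5 higher were SAA1, its neighbour SAA2 (1.17), LCN2 and the chemokine genes CXCL8 (0.55) and CCL20 (0.68), all above HCT116 before and after. NFKB1, which encodes a DNA-binding NF-kB subunit, fell from 20.8, 21.8 and 20.98 to 11.5, 13.3 and 10.8 TPM in HCT15 (-0.84 (SE 0.12, adjusted p = 0.0021)). After median-ratio scaling 3 were lower and 7 higher, and with the GC and length correction 3 and 5. Interferon-stimulated genes had 2 lower and 2 higher of 35 and a median of 0.12. Each share was 5.71%, where 18.7% of all tested genes were called lower and 1.8% higher. IFI27 (1.66 (SE 0.41, adjusted p = 0.018)) was called higher and OAS3, which senses double-stranded RNA (-0.62 (SE 0.12, adjusted p = 0.0073)), lower. The regulator IRF7 was lower (-0.82) and the helicase DHX58 higher (0.57), calls lost in 8 of 24 and 7 of 23 settings. The DHX58 arms overlapped in HCT15, with an effect of 0.07. Its HCT116 values were low and went from 1.38, 0.99 and 0.97 to 0.44, 0.48 and 0.53 TPM. The OAS3 call was lost with the GC and length correction (adjusted p = 0.091). After median-ratio scaling 1 was lower and 5 higher, and with the GC and length correction 0 and 7.

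Cytosolic ribosomal protein genes were mostly called higher where they were called. Of 85, 19 were called higher (22.4%, where 1.8% of all tested genes were) and 1 lower (1.18%, where 18.7% were). The median difference was 0.41, with an HCT15 effect of 0.38 and an HCT116 effect of -0.02. The gene called lower was RPL7L1 (-0.69), a relative of a ribosomal protein gene. RPL35A had 1227, 1144 and 1252 TPM in the HCT116 controls, 1367, 1358 and 1379 with RNF26 in HCT116, 968, 1312 and 809 in the HCT15 controls and 1887, 2125 and 1817 with RNF26 in HCT15. The HCT15 RNF26 libraries lay above all others, and the difference was 0.76 (SE 0.20, adjusted p = 0.021), lost without the second HCT116 RNF26 library, without the third HCT116 control and with no filter. RPL36AL (0.50), RPS23 (0.46) and RPL37 (0.42) were called too. The HCT15 median gap went from -0.16 to 0.31, and 14 of the 20 called genes widened. With median-ratio scaling 46 were higher, with the GC and length correction 31, and without the second HCT15 control 57 higher and 1 lower. These genes have many processed copies, and their values are uncertain.

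Subunits of oxidative phosphorylation encoded in the nucleus had a median of 0.20, with 7 of 73 lower and 4 higher. These shares were 9.59% and 5.48%, where 18.7% and 1.8% of all tested genes were called lower and higher. The 3 lower genes with the smallest p were the complex I subunit NDUFV1 (-0.68), SDHA (-0.74) of complex II and UQCRC1 (-0.83) of complex III, and the 4 higher were ATP5F1E (0.70) of the ATP synthase, NDUFB4 (0.55), NDUFC1 (0.53) and UQCRB (0.53). After median-ratio scaling 3 were lower and 20 higher, with the GC and length correction 4 and 10, and without the second HCT15 control 8 and 22. Of 13 genes of the mitochondrial genome 1 was called, MT-CO3 (0.48, lost in 11 of 23 settings), and without the third HCT15 control 5 were higher. Proteasome genes had 5 of 31 lower (16.1%, near the 18.7% of all tested genes), the regulatory particle members PSMD2 (-0.85 (SE 0.11, adjusted p = 0.0013)), PSMD3 (-0.65), PSMD8 (-0.58), PSMD1 (-0.49) and PSMD12 (-0.37), and the core subunit PSMA5 higher (0.49). After median-ratio scaling 2 were lower and 5 higher, without PSMD8 and PSMD1 (adjusted p = 0.064 and 0.073), and with the GC and length correction 3 and 1. The median of -0.13 turned to 0.10 and 0.03.

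RNF26 and its membrane partners were lower in 5 of 16 (31.25%, where 18.7% of all tested genes were). The 5 include RNF26, the overexpressed gene itself. TMEM43, a nuclear envelope protein that binds RNF26, had 18.8, 19.1 and 17.9 TPM in the HCT116 controls, 16.7, 17.6 and 16.97 with RNF26 in HCT116, 30.1, 27.01 and 26.9 in the HCT15 controls and 17.2, 19.1 and 16.5 with RNF26 in HCT15, a difference of -0.53 (SE 0.10, adjusted p = 0.0063), and came to the HCT116 level; the call was lost with the GC and length correction (adjusted p = 0.061). IRF3 (-0.66), the factor downstream of STING, and the ER ubiquitin-conjugating enzyme UBE2J2 (-0.48) were called but lost in 10 and 13 of 24 settings. The endosomal adaptor TOLLIP (-0.53) was lower as well. After median-ratio scaling 2 remained lower and with the GC and length correction 1, RNF26 itself.

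**Figure D5:**
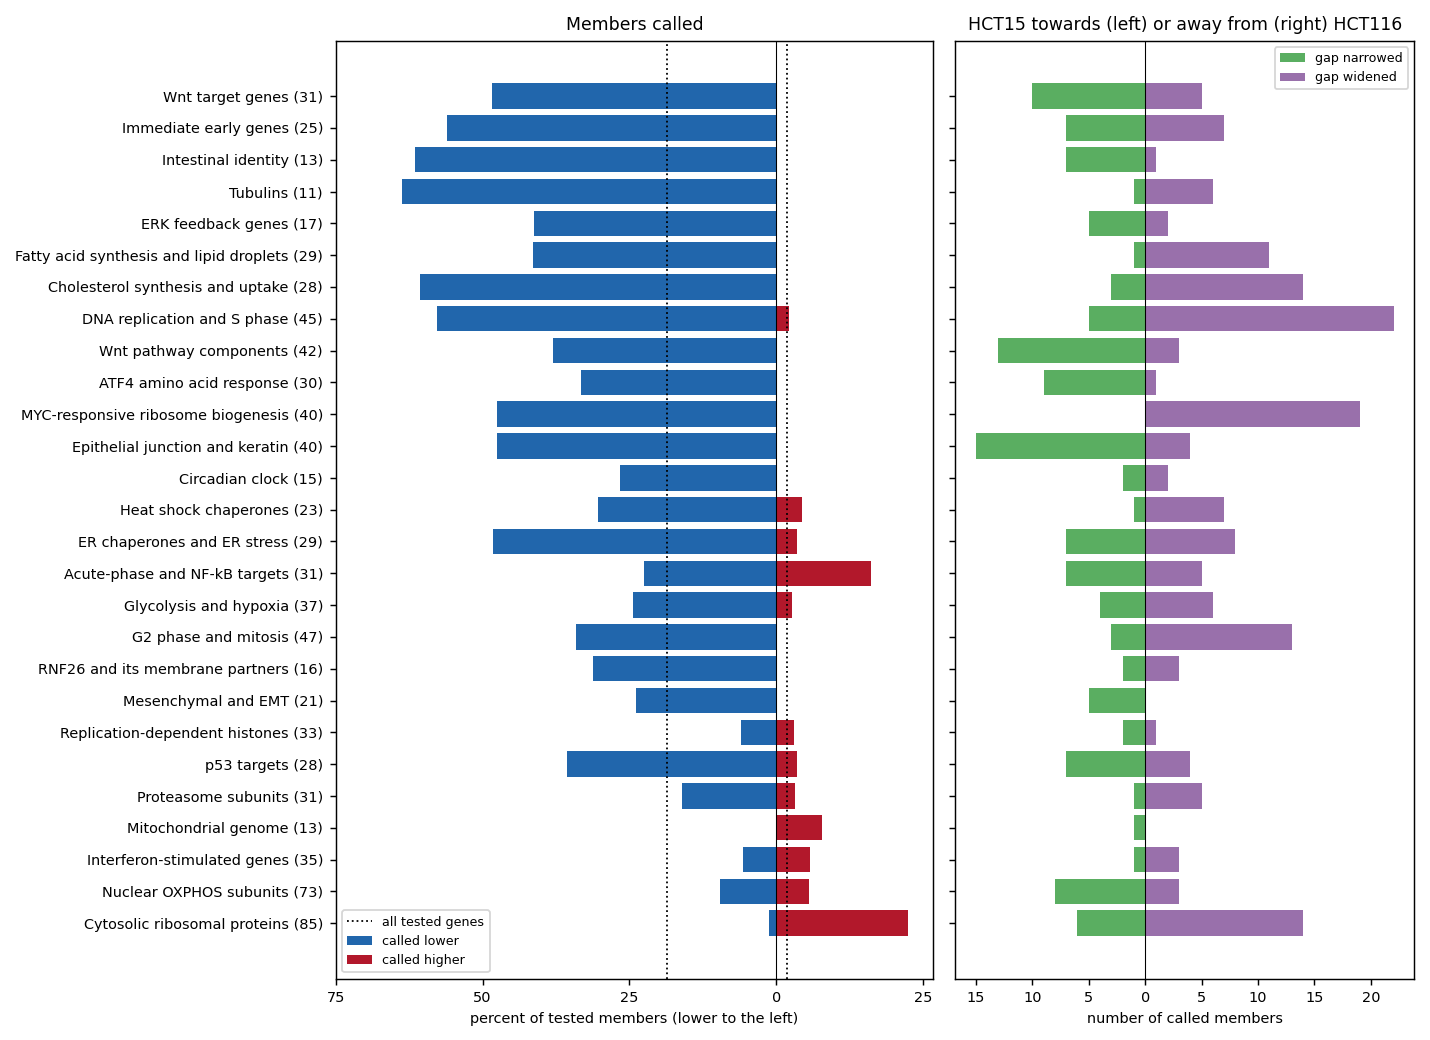
Left, percent of tested members of each list called lower (blue) or higher (red), with the number tested in brackets and dotted lines at 18.7 and 1.8% for all tested genes; right, number of called members whose gap to HCT116 narrowed or widened. Wnt components (13 narrowed, 3 widened) and epithelial genes (15 and 4) lean left, while replication (5 and 22), ribosome biogenesis (0 and 19) and cholesterol genes (3 and 14) lean right. As nearly all these calls were lower, the lean restates whether HCT15 stood above or below HCT116 on average over both arms.

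Among genes with called gaps of opposite sign in the arms, RNF26 had the smallest p, and there the HCT116 level rose past that of HCT15. Next was CARM1, an arginine methyltransferase that coactivates nuclear receptors. Its levels were 31.3, 32.04 and 30.7 TPM in the HCT116 controls, 32.4, 34.1 and 29.7 with RNF26 in HCT116, 57.7, 59.6 and 60.5 in the HCT15 controls and 27.2, 27.98 and 26.6 with RNF26 in HCT15. The HCT15 arms lay on either side of all 6 HCT116 libraries, and the difference was -1.12 (SE 0.09, adjusted p = 0.00036), or -0.74 with the GC and length correction. CCAR2, a regulator of the deacetylase SIRT1, had a difference of -1.23 (SE 0.11, adjusted p = 0.00048), with a gap of 0.34 in controls and -0.89 with RNF26. ABCB1, the drug efflux pump P-glycoprotein, narrowed without crossing. It had 106, 99.5 and 105 TPM in HCT15 controls, 43.5, 42.5 and 46.7 with RNF26 and under 4 TPM in HCT116 (-1.34 (SE 0.25, adjusted p = 0.0055)). MYADM, a gene for a membrane protein, fell from 39.7, 36.6 and 49.9 to 13.4, 14.9 and 13.2 TPM in HCT15. It ended near HCT116 (-1.35 (SE 0.19, adjusted p = 0.002)).

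An unadjusted p under 0.05 in each line was reached by 121 called genes with opposite signs and 28 with the same sign. Of the 121, 98 were lower and 23 higher in HCT15. Genes called for the difference favour opposite signs by construction, so nothing is read from the split of 121 and 28. ARID1A, the DNA-binding subunit of the SWI/SNF remodelling complex, had 6.24, 6.54 and 6.92 TPM in the HCT116 controls, 7.78, 8.76 and 7.69 with RNF26 in HCT116, 15.5, 12.2 and 17.8 in the HCT15 controls and 6.76, 6.90 and 6.16 with RNF26 in HCT15. Neither pair of arms overlapped, and the difference was -1.34 (SE 0.17, adjusted p = 0.0013). PRKACA, the catalytic subunit of protein kinase A, had 17.5, 16.5 and 15.98 TPM in the HCT116 controls, 20.6, 19.1 and 21.3 with RNF26 in HCT116, 13.8, 15.9 and 13.9 in the HCT15 controls and 7.30, 7.02 and 8.21 with RNF26 in HCT15, a difference of -1.14 (SE 0.12, adjusted p = 0.00089). RPH3AL, an effector of exocytosis, had 1.87, 1.99 and 1.34 and 3.91, 3.02 and 3.45 TPM in the HCT116 arms and 13.1, 9.87 and 14.3 and 6.61, 6.45 and 7.26 in the HCT15 arms (-1.48 (SE 0.20, adjusted p = 0.0017)). The poly(A) polymerase TENT4A (-1.11), the mitochondrial exchanger SLC8B1 (-1.04) and the sterol binder OSBP2 (-0.98) showed the same arrangement. The HCT116 side of these genes did not pass the adjusted test, with adjusted p of 0.7 for RPH3AL and 1 for ARID1A.

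Among the 28 genes with the same sign in both lines was BCKDK, the kinase that restrains branched-chain amino acid breakdown. It had 18.4, 20.3 and 17.8 TPM in the HCT116 controls, 16.3, 16.9 and 15.2 with RNF26 in HCT116, 34.9, 32.1 and 37.2 in the HCT15 controls and 15.6, 14.8 and 15.98 with RNF26 in HCT15. Both pairs of arms were apart, with effects of -1.12 in HCT15 and -0.21 in HCT116 (unadjusted p = 0.019), and the difference was -0.91 (SE 0.11, adjusted p = 0.0013). The peptidase APEH (-0.93), the reductase POR (-0.65), which feeds electrons to cytochromes P450, the adhesion molecule ICAM1 (-0.65) and YIPF3 (-0.48) of the Golgi were others named from this group. The YIPF3 call was lost after median-ratio scaling (adjusted p = 0.066) and with the GC and length correction (adjusted p = 0.14). Of the 134 genes named by the rule and called, 49 had a difference more than 1.5 times smaller with the GC and length correction, and 20 were no longer called.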

How the data were processed

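Messenger RNA was measured in 12 libraries, 3 in each of 4 groups taken from the sample titles, with nothing left out. Per the labels' protocols, poly(A) RNA was selected and made into stranded libraries. The submitters' processing notes name GRCh38 and, without versions or roles, RSEM, StringTie, HISAT2 and fastp. The authors deposited TPM, a unit that sums to 1000000 per library and keeps no depth, so no count model or counting interval was used, and a gene's TPM depends on the rest of its library. The use of strand in quantification is not stated in the labels, so overlapping antisense genes and near-identical paralogs are uncertain. No pair of libraries was alike, with at least 24770 genes differing.

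Genes reaching 1 TPM in at least 3 libraries, 15584 in all, were fitted on log2(TPM + 1) with a mean per group in limma 3.58.1 (R 4.3.3; eBayes with a trend, 8 residual degrees of freedom), which understates changes of low genes. All groups shared 1 spread per gene, although the SD of deviations was 0.218 in HCT15 controls and 0.153 to 0.180 in the others. Tests were two-sided with Benjamini-Hochberg adjustment over all tested genes, and genes under 0.05 were called; the procedure was tested on simulated data. A gap narrowed when the difference and the gap averaged over both arms had opposite signs. Positions, GC content and length came from the GENCODE annotation of GRCh38, with 13969 tested genes matched to a symbol.

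The members and lists were chosen with earlier results of these data known, and lists were described without set tests. Named genes were RNF26, the 12 largest differences each way with a group mean of 5 TPM or more and arms apart in at least 1 line, up to 4 genes per list by smallest p, the 8 that narrowed and 8 that widened most, and up to 6 each with opposite signs, the same sign or reversed order. A few genes chosen this way are not reported here. Genes named because a count was 5 or fewer were chosen after their values were seen. The 24 alternatives were pseudocounts of 0.1 and 5, no filter or a filter of 5 TPM, median-ratio scaling over 7524 genes, quantile normalization, removal of mitochondrial and ribosomal protein genes, a spline correction for GC content and length over 95.3% of tested genes, 3 other eBayes or weight settings, the replicate number as a block, and leaving out each library.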

Additional observations from a re-analysis of the deposited data

Results flagged for a closer look

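Results whose effects differed between HCT15 and HCT116 by the interaction test are repeated here with their values; no explanation of them was tested. The difference was called for 3190 genes. RNF26 had a difference of -3.07, with the larger rise in HCT116.

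Among genes with opposite signs in the 2 lines, at an unadjusted p under 0.05 in each, the 5 with the smallest p, a group mean of 5 TPM or more and arms apart in each line are listed. These were PRKACA (-1.14), SLC8B1 (-1.04), TENT4A (-1.11), ARID1A (-1.34) and RPH3AL (-1.48). In all 5 the HCT15 arm with RNF26 was lower than its controls and the HCT116 arm higher. Of 2820 called genes with a symbol and a group mean of 5 TPM or more, pseudogenes left out, 241 (8.55%) had arms apart in both lines with opposite signs, 200 lower and 41 higher in HCT15. Among all 9934 tested genes of this kind it was 273 (2.75%). A called difference favours opposite signs by its construction, so nothing is read from the contrast of these shares.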

How the results depend on the processing

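RNF26 kept its direction and call in all 24 alternatives (-3.17 to -2.98 without single libraries), and none of the 134 genes named and called changed sign in an alternative that tested it; of these, 96 stayed called throughout, 38 lost the call in at least 1 and 11 in 10 or more. The number of genes called was 2080 (934 higher, 1146 lower) with median-ratio scaling, 1932 (856 and 1076) with quantile normalization, 1642 (629 and 1013) with the GC and length correction, and, on removal of mitochondrial and ribosomal protein mRNA, 501 higher and 1716 lower. Without single libraries it was 1941 to 3857, with 132 to 636 higher and 1809 to 3221 lower. The share of called genes that narrowed was 51.9% and 56.7% at pseudocounts of 0.1 and 5, 45.9% with median-ratio scaling, 44.5% with quantile normalization, 47.5% with the GC and length correction, 49.7% on that removal, and 51.1 to 56.2% without single libraries. The difference in the distance of HCT15 from HCT116 was -0.00102 with median-ratio scaling and -0.0184 on that removal (exact p = 0.6). It reversed to 0.00591 with quantile normalization (exact p = 0.8) and was -0.05 to -0.03 without single libraries. The causes were not tested.

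Replicate numbers were shared between groups, and the deviations of same-numbered libraries had correlations from -0.05 to 0.15. The highest was that of the third HCT15 control with the third HCT15 RNF26 library. With 3 libraries per group such correlations cannot show whether a number stands for a shared batch. With the replicate block 2835 genes were called, 253 higher and 2582 lower. TPM gives no depth, so low genes have an unknown counting error, and 3 libraries per group limit the exact test to 0.1.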
